A study of Homo sapiens with 6 samples.

Results

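The 10 genes described here carry the names of 3 families of the cellular stress machinery. These are the heat shock factors (HSF1, HSF2 and HSF4), the small heat shock proteins (HSPB1, HSPB8, CRYAB and, by name only, HSPB11) and the BAG co-chaperones (BAG1, BAG3 and BAG6). They were chosen by gene symbol, and all 10 were found among the 26255 genes of the deposited files. RNA had been sequenced from 22RV1 cells, a human castration-resistant prostate cancer line, in 3 samples exposed to 10 nM bruceantin (BCT) and in 3 samples exposed to the vehicle DMSO, each for 24 h in RPMI medium with serum. BCT is a quassinoid that the study examined as a compound acting on HSP90, and the comparison asks how transcripts of the stress machinery stood after it. Both groups come from a single cell line at 1 dose and 1 time, the labels do not say whether the samples were separate cultures, and protein was not measured in these files.

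Heat shock factors are transcription factors that bind inverted repeats of the pentamer nGAAn, the heat shock element. In unstressed cells HSF1 is held inactive by chaperones, and compounds that occupy the ATP pocket of HSP90 are known to release it, after which genes such as HSPB1, HSPB8, CRYAB and BAG3 are transcribed. Small heat shock proteins hold unfolded proteins without using ATP, and BAG proteins such as BAG1 and BAG3 bind the ATPase domain of HSP70 and direct its clients to refolding or degradation.

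The windows upstream of RefSeq transcript starts show where heat shock element pairs stand in these genes. Windows of 300 bases, of which 250 lie before the start, were found for 8 members (all but HSF1 and CRYAB, with HSPB11 listed as IFT25) and searched on both strands for GAANNTTC and TTCNNGAA, each of which reads the same on either strand. Of the 12 windows of these members, a pair was present in the 1 window of HSPB1 and the 1 window of HSPB8. Neither was present in any of the windows of the other 6 members. Among all 35116 windows of that length 13.5% held one, so the matches lie close to that share. The 250 bases before the start are printed below for HSPB1 and HSPB8, which hold the pair (in capitals), and for BAG3, a gene of the same response whose window does not. On GRCh37 these bases match chr7:75931740-75931989, chr12:119616486-119616735 and chr10:121410642-121410891, all on the forward strand. Counted from the start, the pair has its first base at -182 in HSPB1 and at -88 in HSPB8, which holds a further GAANNTTC just after the start. These matches describe letters only, and binding of a factor was not measured.
HSPB1: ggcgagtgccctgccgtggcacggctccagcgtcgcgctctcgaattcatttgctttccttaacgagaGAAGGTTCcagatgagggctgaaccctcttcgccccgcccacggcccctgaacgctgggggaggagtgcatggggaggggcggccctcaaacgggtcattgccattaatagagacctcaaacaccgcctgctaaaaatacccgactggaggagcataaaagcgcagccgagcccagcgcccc
HSPB8: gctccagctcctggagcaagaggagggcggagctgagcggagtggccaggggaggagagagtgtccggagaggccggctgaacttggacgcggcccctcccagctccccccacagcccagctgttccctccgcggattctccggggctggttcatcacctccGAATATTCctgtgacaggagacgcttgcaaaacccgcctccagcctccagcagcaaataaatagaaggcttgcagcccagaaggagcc
BAG3: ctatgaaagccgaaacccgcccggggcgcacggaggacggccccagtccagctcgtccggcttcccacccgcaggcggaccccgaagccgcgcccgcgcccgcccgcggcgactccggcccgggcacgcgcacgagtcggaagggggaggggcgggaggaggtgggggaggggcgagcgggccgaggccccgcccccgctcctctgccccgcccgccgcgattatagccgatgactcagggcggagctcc

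Of the 10 genes, 9 had a mean of at least 1 FPKM (the fragments assigned to a gene, scaled by its length and by library size) and were tested. HSF1 and HSPB8 rose in BCT-treated cells, HSF4 and HSPB11 fell, and HSF2, HSPB1, BAG1, BAG3 and BAG6 did not reach the call, which asks for an absolute log2 fold change above 0.85 and a false discovery rate (FDR) below 0.05 in limma. The 2 members called higher and 2 called lower stand against 13.9% called higher and 17.8% called lower among all 12729 genes tested, so these counts lie close to the background. At the FDR alone 5 of the 9 members passed, against 82.1% of all genes. The ranges of both groups were apart for 5 of the 9 members, against 85.3% of all genes. The median log2 fold change was -0.007 over the members and -0.038 over all genes, on log2(FPKM + 0.1).

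**Figure D1:**
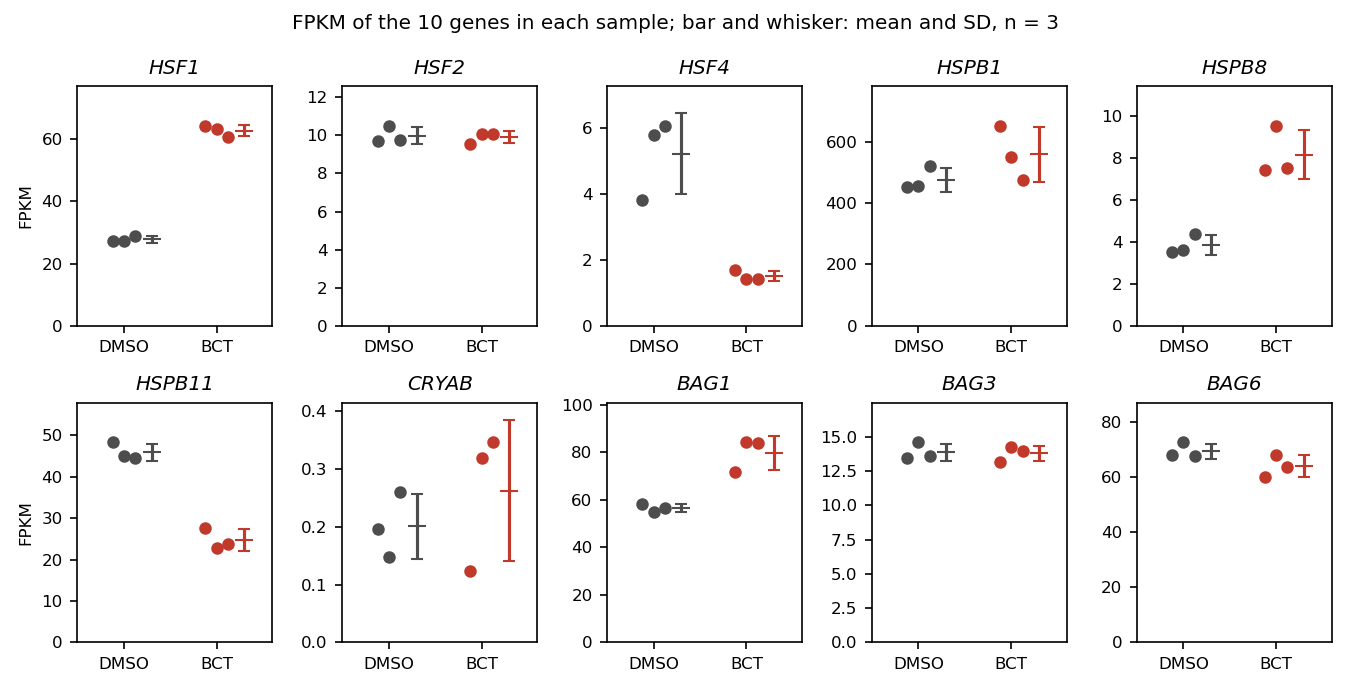
FPKM of each of the 10 genes (vertical axes, each from 0) in the 3 DMSO and 3 BCT samples, with points for samples and bars with whiskers for mean and SD. The BCT points of HSF1 and HSPB8 lie above every DMSO point and those of HSF4 and HSPB11 below, while those of HSF2 and BAG3 overlap the DMSO points.

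FPKM sums ran from 1169649 to 1572321 in DMSO samples and from 757534 to 799838 in BCT samples, and the gene with the highest mean held 43.5% to 55.3% of the former and 31.7% to 32.5% of the latter, so values were used as deposited and scalings were tried as alternatives. Depth, known only as a ratio to DMSO replicate 1, was 0.878 to 1 with DMSO and 1.06 to 1.13 with BCT. BCT replicate 1 was nearer to the DMSO samples than the other BCT samples, with a mean correlation across genes of 0.893 against 0.853 and 0.854. All 7 prostate luminal markers averaged at least 1 FPKM, summing to 784 to 789 FPKM with DMSO and 1772 to 1950 FPKM with BCT, whereas the 4 basal and 4 endothelial markers stayed at or below 0.327 FPKM. Of 6 fibroblast and 5 leukocyte markers only COL1A1 and CD68 averaged at least 1 FPKM, the other 4 leukocyte markers staying at or below 0.387 FPKM. The summed level rose with BCT from 2.62 to 2.79 up to 5.87 to 7.13 FPKM for the fibroblast list, and from 2.21 to 3.29 up to 5.38 to 8.63 FPKM for the leukocyte list, and their part in the results was not tested. In bulk RNA, fewer cells of a kind and less RNA per cell cannot be told apart.

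HSF1, the main activator of chaperone genes under proteotoxic stress, was listed at 27.1, 27.3 and 28.9 FPKM in the DMSO samples and at 64.2, 63.2 and 60.7 FPKM in the BCT samples. Each BCT sample lay above every DMSO sample, by a margin far wider than the spread within either group. The log2 fold change was 1.17 (standard error 0.05, 95% interval 1.06 to 1.29, limma, Benjamini-Hochberg adjusted p = 6.3e-07), a fold of 2.25, and 7.8% of all tested genes had a larger one. HSF1 lies on chromosome 8 from 145515273 to 145538383 of GRCh37 on the forward strand and has 13 exons. The deposited position runs on to 145550582 and is shared with DGAT1, a neighbor on the other strand, and 2.58% of the exon bases of HSF1 overlap exons of other genes. The library kit does not mark strand. DGAT1 stood at 11.7 to 12.5 FPKM with DMSO and at 5.52 to 6.72 FPKM with BCT, and how reads were divided between these genes was not tested.

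HSF2, a paralog that forms mixed trimers with HSF1 and takes part in development, was listed at 9.69, 10.5 and 9.75 FPKM in DMSO samples, against 9.54, 10.1 and 10.1 FPKM with BCT. The groups overlapped. The difference was -0.01 on the log2 scale (95% interval -0.15 to 0.12, adjusted p = 0.88), so with the values as deposited a change of the size seen in HSF1 lies outside its interval. The ratio of HSF1 to HSF2 within a sample, which multiplying all values of a sample by 1 number leaves as it is, was 2.60 to 2.97 with DMSO and 6.02 to 6.74 with BCT.

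HSF4, known for its part in lens development, was the lowest of the factors and the member that fell most. It was listed at 3.81, 5.80 and 6.07 FPKM with DMSO, where DMSO replicate 1 was the low sample, and at 1.69, 1.42 and 1.43 FPKM with BCT. The log2 fold change was -1.70 (standard error 0.18, 95% interval -2.10 to -1.30, adjusted p = 2.9e-05), and 95.5% of all tested genes had a higher one. The gene has 13 exons on chromosome 16 between 67198584 and 67203848 of GRCh37. Its deposited position begins upstream, at the gene FBXL8, and FBXL8 fell alongside it, from 3.85, 5.31 and 5.54 to 1.73, 1.08 and 1.27 FPKM. The ratio of HSF4 to FBXL8 was 1.06 ± 0.0598 with DMSO and 1.14 ± 0.164 with BCT (SD, n = 3 each). Of the exon bases of HSF4, 27.1% are also exon bases of a further annotated gene on the same strand, and how the reads were divided among these genes was not tested. The ratio of HSF1 to HSF4 went from between 4.70 and 7.12 to between 38 and 44.6.

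**Figure D2:**
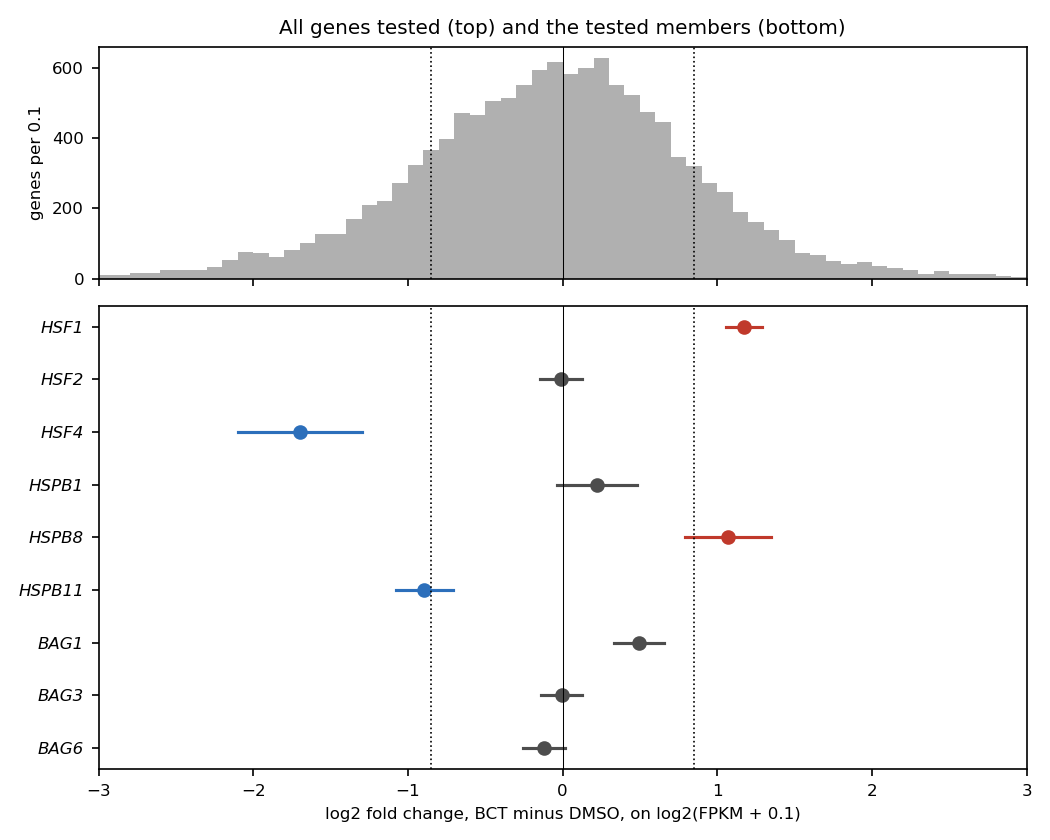
Number of genes per 0.1 of log2 fold change for the tested genes between -3 and 3 (top) and the log2 fold change with its 95% interval for the 9 tested members (bottom), BCT minus DMSO, with dotted lines at the threshold of 0.85 in either direction (red called higher, blue called lower). HSF1 and HSPB8 lie right of the upper line, HSF4 and HSPB11 left of the lower line, and the intervals of HSF2 and BAG3 hold 0.

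HSPB1 (HSP27), an abundant small heat shock protein that also guards actin filaments, was the highest of the members in every sample. It was listed at 452, 455 and 521 FPKM in DMSO samples, against 651, 551 and 474 FPKM with BCT. BCT replicate 3 fell inside the range of the DMSO samples, and the BCT samples spread more widely (SD 88.8 against 39.3, n = 3 each). The difference of 0.22 on the log2 scale (95% interval -0.04 to 0.48, adjusted p = 0.098) did not pass the test. It was 0.106 without BCT replicate 1 (adjusted p = 0.3) and 0.335 without BCT replicate 3, where it passed the FDR (adjusted p = 0.018), as it did at 0.507 with a correction for GC content and length (adjusted p = 6.1e-04) and at 0.727 with quantile normalization (adjusted p = 1.7e-04), all under the fold change threshold. With every sample set to the same FPKM sum, where the median of all genes was 0.72, HSPB1 was called higher at 0.991. With equal sums without the top gene it was 0.609, under the threshold. HSPB1 has 3 exons on chromosome 7, from 75931990 to 75933612 of GRCh37.

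HSPB8 (HSP22), which joins BAG3 in a complex that sends misfolded proteins to autophagy, was low in DMSO-treated cells and rose with BCT. The values were 3.50, 3.62 and 4.38 FPKM with DMSO and 7.42, 9.53 and 7.55 FPKM with BCT, with no overlap. The log2 fold change was 1.07 (standard error 0.12, 95% interval 0.79 to 1.35, adjusted p = 5.1e-05), a fold of 2.10. Its interval reaches below 0.85, and a test against that threshold did not pass (adjusted p = 0.23). The gene lies on chromosome 12 from 119609360 to 119662660. The ratio of HSPB1 to HSPB8 went from between 119 and 129 with DMSO to between 57.9 and 87.8 with BCT.

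HSPB11 carries the family name but works as IFT25, a subunit of the intraflagellar transport complex B that moves cargo in cilia. It was listed at 48.2, 44.9 and 44.4 FPKM in DMSO samples, against 27.7, 22.7 and 23.7 FPKM with BCT, with no overlap. The log2 fold change of -0.89 (standard error 0.08, 95% interval -1.08 to -0.71, adjusted p = 1.2e-05) stood just past the threshold, and 4 of the 5 scalings (all but median ratio scaling) and the fit without BCT replicate 2 (-0.835) left it short of it. The gene lies on the reverse strand of chromosome 1 from 54382247 to 54411372. Of the other 16 genes of complex B, 2 were called higher, 0 lower and 14 neither, with a median log2 fold change of 0.36. Over all genes tested, 13.9% were called higher and 17.8% lower, with a median of -0.038. The complex B genes called were IFT46 (1.28, adjusted p = 7.4e-07) and IFT57 (0.91, adjusted p = 2.1e-06). IFT27, the GTPase that pairs with IFT25 in the complex and was singled out after its values were seen, was listed at 25.5, 24.0 and 27.0 FPKM in DMSO samples, against 17.2, 13.0 and 13.3 FPKM with BCT, a difference of -0.82 that passed the FDR (adjusted p = 1.2e-04) but not the fold change threshold. It was called at -0.95 without BCT replicate 1 and at -0.865 without DMSO replicate 2. Other alternatives made the fall of IFT27 smaller. It was -0.057 with every sample set to the same FPKM sum and -0.437 with equal sums without the top gene. With the correction for GC content and length it was -0.68. The ratio of HSPB11 to IFT27 was 1.80 ± 0.136 with DMSO and 1.71 ± 0.0894 with BCT (SD, n = 3 each), while that of HSPB11 to IFT46 went from between 2.69 and 3.05 to between 0.56 and 0.76.

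CRYAB, the alpha-B crystallin of lens and muscle, was listed at 0.196, 0.148 and 0.260 FPKM in DMSO samples, against 0.123, 0.319 and 0.346 FPKM with BCT. It was the lowest member in both groups, the groups overlapped, and it fell under the level set for testing. With no filter on low values its difference was 0.22 (adjusted p = 0.55). Its exons, on chromosome 11 from 111779288 to 111794446, share 13.6% of their bases with genes of the opposite strand. C11orf52, which the files place at the same position, stood at 12.1 to 13.3 FPKM with DMSO and at 21.4 to 23.2 FPKM with BCT.

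Among the other 7 small heat shock protein genes 1 was tested. HSPB6 (HSP20), known from muscle, was listed at 455, 487 and 492 FPKM with DMSO, at the level of HSPB1, and at 155, 103 and 90.6 FPKM with BCT. BCT replicate 1 was the high sample of its group, and still lay below every DMSO sample. The log2 fold change was -2.08 (standard error 0.17, adjusted p = 8.0e-06), and -2.30 without BCT replicate 1. The ratio of HSPB1 to HSPB6 went from between 0.934 and 1.06 to between 4.20 and 5.34. The further 6 genes were not tested, with CRYAA, HSPB2, HSPB7, HSPB9 and ODF1 at or below 0.406 FPKM and HSPB3 listed at 0 in all 6 samples.

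**Figure D3:**
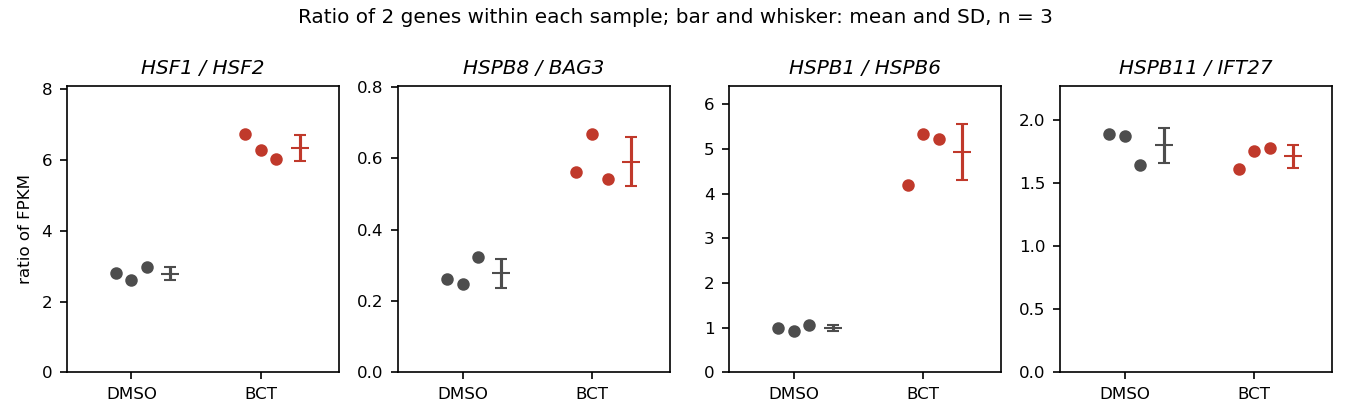
Ratio of the FPKM values of 2 genes within each sample (vertical axes, each from 0), for DMSO and BCT samples, with bars and whiskers for mean and SD of 3 samples. HSF1 over HSF2, HSPB8 over BAG3 and HSPB1 over HSPB6 are higher in every BCT sample than in any DMSO sample, and HSPB11 over IFT27 overlaps.

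BAG1, which binds HSP70 and has a nuclear isoform that acts on the androgen receptor, was listed at 58.1, 55.0 and 56.6 FPKM in DMSO samples, against 71.6, 84.2 and 83.9 FPKM with BCT. The groups did not overlap, and BCT replicate 1 was the one nearest to DMSO. The difference of 0.49 (standard error 0.07, 95% interval 0.33 to 0.66, adjusted p = 2.1e-04) passed the FDR and not the fold change threshold. BAG1 was called higher at 1.26 with equal sums and at 0.88 with equal sums without the top gene. The medians of all genes were 0.72 and 0.34 under these scalings. BAG1 lies on the reverse strand of chromosome 9 from 33247818 to 33264718, and the files give 1 value for all its isoforms.

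BAG3, the stress-inducible BAG protein that couples HSP70 to HSPB8 and to autophagy, was listed at 13.4, 14.6 and 13.6 FPKM in DMSO samples, against 13.2, 14.3 and 13.9 FPKM with BCT. The groups overlapped. The difference was -0.007 (95% interval -0.14 to 0.13, adjusted p = 0.92). The ratio of HSPB8 to BAG3 went from between 0.248 and 0.323 to between 0.542 and 0.669. BAG3 has 4 exons on chromosome 10 from 121410892 to 121437331.

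BAG6, a large chaperone that receives tail-anchored and mislocalized membrane proteins, was listed at 67.8, 72.4 and 67.7 FPKM in DMSO samples, against 59.8, 67.8 and 63.7 FPKM with BCT. BCT replicate 2 reached the lower DMSO samples, and the difference of -0.12 (95% interval -0.26 to 0.02, adjusted p = 0.092) did not pass. It was -0.076 without BCT replicate 1 (adjusted p = 0.19) and -0.166 without BCT replicate 2, where it passed the FDR (adjusted p = 0.034). The files place it on an alternative haplotype of chromosome 6, and GENCODE places it at 31606805 to 31620482 of the main assembly. Of 9 genes of the BAG6 pathway for tail-anchored proteins, 0 were called in limma, against 17.8% called lower and 13.9% higher among all genes. At the FDR alone 7 passed, against 82.1% of all genes, and the same number had an unadjusted p under 0.05. The median of the pathway was -0.15, against -0.038 over all genes.

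The other 3 BAG genes were not called with the values as deposited. BAG2 was at 7.29 ± 0.614 FPKM with DMSO and 5.50 ± 0.525 FPKM with BCT (SD, n = 3 each), a difference of -0.40 (adjusted p = 0.0033) under the fold change threshold. BAG4 (-0.06, adjusted p = 0.37) and BAG5 (0.10, adjusted p = 0.088) did not pass the FDR, and BAG5 was called higher at 0.867 after scaling to equal sums. Of further genes linked to the heat shock factors, HSBP1 encodes not a factor but a protein that binds the trimers of HSF1 and restrains them. HSBP1 was at 107 ± 4.87 FPKM with DMSO and 64.8 ± 2.89 FPKM with BCT. The difference of -0.73 (adjusted p = 5.6e-06) passed the FDR only, and HSBP1 was called lower at -0.981 with the correction for GC content and length. Its relative HSBP1L1 was 0.50 higher (adjusted p = 1.2e-04), also under the threshold, which it passed at 1.266 with equal sums and at 0.887 with equal sums without the top gene. HSF2BP, HSF5 and HSFX1 did not pass 0.921 FPKM in any sample and were not tested.

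In order of mean level, HSPB1 stood first and CRYAB last in both groups. With DMSO the order between them was BAG6, BAG1, HSPB11, HSF1, BAG3, HSF2, HSF4 and HSPB8, and of these neighbors only HSF4 and HSPB8 overlapped. With BCT it was BAG1, BAG6, HSF1, HSPB11, BAG3, HSF2, HSPB8 and HSF4, where BAG6 and HSF1 overlapped, at 59.8 to 67.8 and 60.7 to 64.2 FPKM. FPKM is scaled by length, which allows a rough order of levels between genes. The deposited positions of HSF1, HSF4 and CRYAB are shared with neighbors, and BAG6 is placed on an alternative haplotype. What these placements do to the order was not tested.

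Genes known to respond to heat shock were mixed. Of 26 such genes outside the 10 members, 25 were tested, 8 were called lower, 3 higher and 14 neither, with a median log2 fold change of -0.48. Among all genes tested, 17.8% were called lower and 13.9% higher, with a median of -0.038. With every sample set to the same FPKM sum the split of the list turned to 1 lower and 8 higher, under a median of all genes of 0.72. Called lower with the largest falls were HSPA8, the constitutive HSP70 to which BAG1 and BAG3 bind, at -1.63 (adjusted p = 1.4e-04) and HSPE1, a mitochondrial chaperonin partner, at -1.38 (adjusted p = 1.3e-06). HSPA8 was listed at 1052, 1043 and 971 FPKM in DMSO samples, against 500, 272 and 266 FPKM with BCT, where BCT replicate 1 was the high sample. Called higher with the largest rises were DNAJB4, an HSP40 co-chaperone, at 1.45 (adjusted p = 2.3e-05) and ZFAND2A, a proteasome-associated zinc finger protein, at 1.40 (adjusted p = 1.9e-06). HSP90AA1 (-0.71, adjusted p = 2.0e-05) and HSP90AB1 (-0.76, adjusted p = 4.9e-06), the cytosolic HSP90 genes, passed the FDR but not the fold change threshold, and DNAJB1 (-0.13, adjusted p = 0.068) did not pass; all 3 were above 0 after scaling to equal sums.

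**Figure D4:**
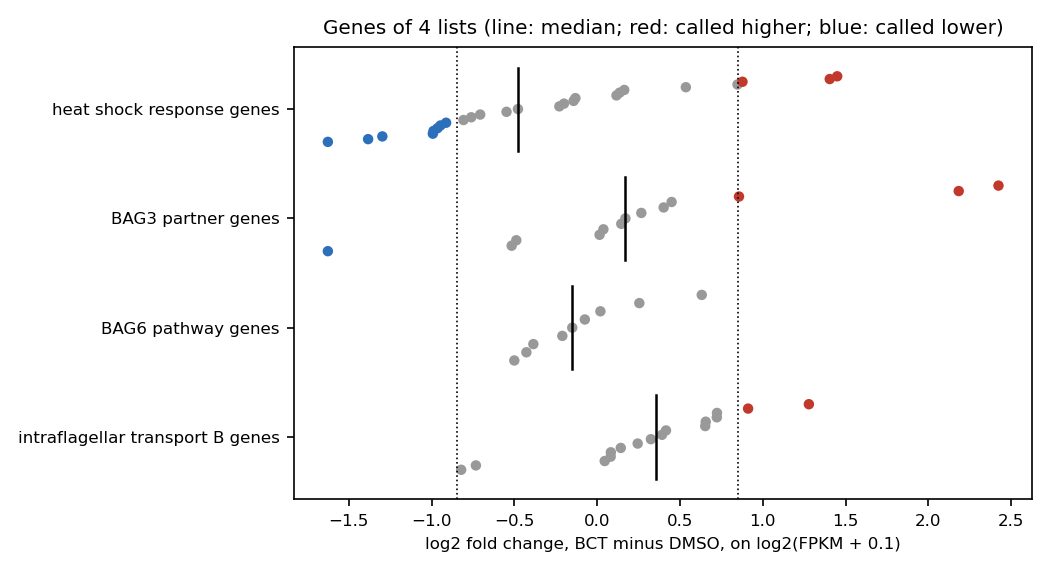
Log2 fold change (BCT minus DMSO, horizontal axis) of each tested gene of 4 gene lists, with a black line at each median and dotted lines at 0.85 in either direction (red called higher, blue called lower, gray neither). The heat shock response list spreads to both sides, the BAG3 partner list holds the 2 largest rises, and the BAG6 pathway list lies inside the lines.

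Of 15 genes whose products work with BAG3, 13 were tested, with 3 called higher, 1 lower and a median of 0.17. All genes tested gave 13.9% called higher, 17.8% lower and a median of -0.038. SQSTM1, the autophagy receptor p62, was listed at 63.3, 61.2 and 62.7 FPKM in DMSO samples, against 304, 352 and 351 FPKM with BCT, or 2.42 higher on the log2 scale (standard error 0.06, adjusted p = 1.6e-07). DNAJB2, an HSP40 that steers clients to degradation, rose from between 20.5 and 20.9 FPKM to between 83.6 and 107 FPKM (log2 fold change 2.18, adjusted p = 4.4e-07). HSPA8 was the gene called lower. BAG3 itself stayed between 13.2 and 14.6 FPKM in all 6 samples.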

How the data were processed

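The 6 libraries were made with the TruSeq RNA Library Prep Kit v2. Per the paper's methods and the submitters' processing notes, the authors trimmed reads with Trimmomatic 0.38, aligned them to hg19 with HISAT2 and assembled them with StringTie (the notes also name HTSeq), and deposited 1 FPKM value per gene in each file. The gene annotation is not given in the sources used here.

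Values were put on the scale log2(FPKM + 0.1). The 12729 genes whose mean over the 6 samples reached 1 FPKM were tested two-sided with limma 3.58.1 (trended eBayes, R 4.3.3) and adjusted by Benjamini-Hochberg over that whole set. The files hold no counts, so no count test was run and reads per gene are unknown. With 3 samples against 3 an exact permutation test cannot give a p below 0.1, so none was used. p-values measure only the spread between these samples, which may be technical.

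The members and gene lists were chosen with earlier results of these data known, and the ratios between genes after their values were seen, so they carry no test. From each longer list at most 4 called genes with the largest change are named, besides HSP90AA1, HSP90AB1, HSPA8, DNAJB1, IFT27 and IFT80. A gene that this rule would name is not reported here. Gene positions, GC content and length come from GENCODE (release lifted to GRCh37), and upstream windows from RefSeq, placed on GRCh37 by exact match. Same-numbered DMSO and BCT samples had correlated deviations of 0.116, 0.033 and 0.034, so the numbers were not taken to pair them. Alternatives covered the pseudocount, filter, 5 scalings, variance model, FDR, a test against the threshold, a replicate block, each sample left out and a loess correction (span 0.5) for GC content and length.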

Additional observations from a re-analysis of the deposited data

How the results depend on the processing

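The alternatives for the list counts and the listed genes were added after the data were seen. Of 197 values of members under alternatives, 168 kept direction and call, 7 lost the call, 3 gained it and 19 changed sign, all of the last in HSF2, BAG3 and BAG6, none of which was called as deposited. HSF1 and HSF4 kept both under each alternative that tested them. The filters, FDR, variance model, test against the threshold and replicate block alone leave the log2 fold change as it is. Direction could not change under those settings, which are part of the 197 values. FPKM alone cannot settle the scaling, and the causes of the moves were not tested.

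Equal FPKM sums gave HSF2 0.75, BAG3 0.76, BAG6 0.65, HSPB1 0.99 (called), BAG1 1.26 (called) and HSPB11 -0.13, with 1 member lower, 4 higher and 6277 genes called (668 lower, 5609 higher), the median of all genes being 0.72. It called BAG5 (0.867) and HSBP1L1 (1.266) higher and gave HSBP1 0.039, BAG2 0.36, BAG4 0.70, HSP90AA1 0.062, HSP90AB1 0.007 and DNAJB1 0.635, with 1 heat shock response gene lower and 8 higher, and 8 BAG3 partners, 2 BAG6 pathway genes and 11 complex B genes higher. Equal sums without the top gene (median 0.34) gave HSF2 0.37, BAG3 0.38, BAG6 0.27, BAG1 0.88 (called), HSPB11 -0.51, HSBP1L1 0.887 (called), BAG4 0.33 and DNAJB1 0.25, with 1 member lower, 3 heat shock response genes lower and 5 higher, 1 BAG6 pathway gene and 6 complex B genes higher, and 26.4% of called genes lower against 56.2% as deposited. Upper quartile scaling gave HSF2 0.033, BAG3 0.037 and HSPB11 -0.849, median ratio scaling HSF2 0.027 and BAG3 0.030, and quantile normalization BAG6 0.036 and HSPB11 -0.84 with 4 heat shock response genes lower; the first and last left 1 member lower.

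The test against the threshold left HSF1 and HSF4, 1 in each direction, not HSPB8 (1.07) or HSPB11 (-0.89), with 2425 genes, 3 heat shock response genes lower and 1 complex B gene higher. A mean of at least 5 FPKM removed HSF4, leaving 1 lower. The GC and length correction gave BAG3 0.125, BAG6 0.108, BAG5 -0.055 and HSBP1 -0.981 (called lower), with 1 complex B gene lower and 1 higher, and the same values with the block. The replicate block alone gave 4033 genes, 2266 lower and 1767 higher, and changed no call of a member. Leaving out 1 sample gave HSF2 -0.030 to 0.026, BAG3 -0.031 to 0.030, HSPB1 0.106 to 0.335, BAG6 -0.166 to -0.076, HSPB11 -0.978 to -0.835, 1 to 2 members lower and 0 to 1 complex B genes lower.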
